A study of Mus musculus with 4 samples.

Results

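The 9 genes described here encode the ferlins dysferlin and myoferlin (*Dysf*, *Myof*), dystrophin and its homologue utrophin (*Dmd*, *Utrn*), dystroglycan (*Dag1*), the α-, β- and δ-sarcoglycans (*Sgca*, *Sgcb*, *Sgcd*) and sarcospan (*Sspn*). They were picked by symbol from the 21462 genes of the deposited table, with results of these data already known, and 8 of the 9 reached the mean of at least 10 normalized counts that was required for testing. RNA was sequenced from lung smooth muscle cells (SMCs) of C57BL/6 mice, with 2 libraries from Tet3 mutant animals (Mut) and 2 from control animals (WT). By the study's methods, mutants carried floxed *Tet3* alleles that a tamoxifen-inducible Cre under the α-smooth muscle actin promoter inactivates, and all cells were sorted by a tdTomato reporter after depletion of CD45+ and Ter-119+ blood cells. Controls lacked the floxed allele but carried the Cre and/or the reporter, and the sort marks cells by the activity of this promoter rather than by smooth muscle identity as such. By the same source, the 2 libraries of a group came from different animals. The labels give neither age, sex, nor the interval after tamoxifen.

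The dystrophin complex links the actin cytoskeleton to the extracellular matrix. Dystrophin or utrophin binds actin inside the cell and dystroglycan at the membrane, dystroglycan binds laminin outside, and the sarcoglycans with sarcospan stabilise the assembly. Ferlins are calcium-binding membrane proteins that act in vesicle fusion, and dysferlin is known for resealing torn muscle membranes. Loss of dystrophin, sarcoglycans or dysferlin causes muscular dystrophies, and the complex is also found in smooth muscle.

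The deposited values are counts per gene, normalized between libraries and rounded by the study. The study reported transcripts that start inside genes in the mutants, with more reads but less full-length mRNA for *Acta2* and *Cnn1*. Counts per gene include reads of such transcripts. Whether higher counts here meant more full-length mRNA was not tested. The reads assigned to genes were estimated at 6.32 to 7.56 M per library (M, 1000000 reads). *Tet3* itself had 1847 and 1926 normalized counts in the controls and 1534 and 1444 in the mutants. Control replicate 2 stood apart, differing more than 2-fold from all 3 other libraries in 1003 genes, against 120 to 248 genes for the others. Its value for the X-linked transcript *Xist* was 2, while control replicate 1 had 6781 and the mutants had 6542 and 5214. The study used male and female mice in near-equal numbers. Only control replicate 2 nearly lacked *Xist*, so by this marker of sex WT and Mut were not balanced. The part of sex in the differences described here was not tested. Smooth muscle markers were present (summed over 10 genes, 5108 and 6747 normalized counts in WT against 7952 and 7612 in Mut). Also present were those of alveolar type 2 cells (7 genes, 14063 and 20836 against 10000 and 12722) and fibroblasts (8 genes, 17493 and 14847 against 18493 and 16675). So were those of endothelium (9 genes, 14397 and 13818 against 15457 and 14942) and macrophages (10 genes, 8040 and 6860 against 8721 and 9880). Macrophage markers were present although CD45+ cells had been depleted. Whether the transcripts of these lists came from the SMCs themselves or from other cells was not tested. Sums of 8 of 17 marker lists were higher in each mutant than in either control, 1 was lower and 8 overlapped. The Schwann cell list counted as higher at 2884 and 2795 normalized counts in WT against 2885 and 2915 in Mut. Among single tested genes, 19.6% were higher and 19.5% lower in both mutants. In such bulk samples, fewer cells of a type and less RNA per cell cannot be told apart.

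The members separated by gene rather than as a group. *Dysf* was 1.82-fold higher in the mean of the mutants, *Dmd* and *Sspn* were slightly higher, *Dag1* was slightly lower, and *Myof*, *Utrn*, *Sgcb* and *Sgcd* overlapped between groups. Of the 8 tested members, 3 were higher in each mutant than in either control, where 19.6% of all 16659 tested genes were, and 1 was lower, where 19.5% of all genes were. Their median log2 fold change was 0.05, beside -0.01 over all tested genes, and it was 0.31 without control replicate 1. By limma, 0 of the 8 passed an adjusted p of 0.05 (0% of all tested genes passed), and 2, *Dysf* and *Dmd*, both higher in Mut, had an unadjusted p under 0.05 (6.68% of all tested genes in either direction, 3.83% higher and 2.85% lower). Adjusted p-values ranged from 0.681 to 0.973. As the members were chosen with this comparison known, these counts describe them and support nothing further.

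**Figure D1:**
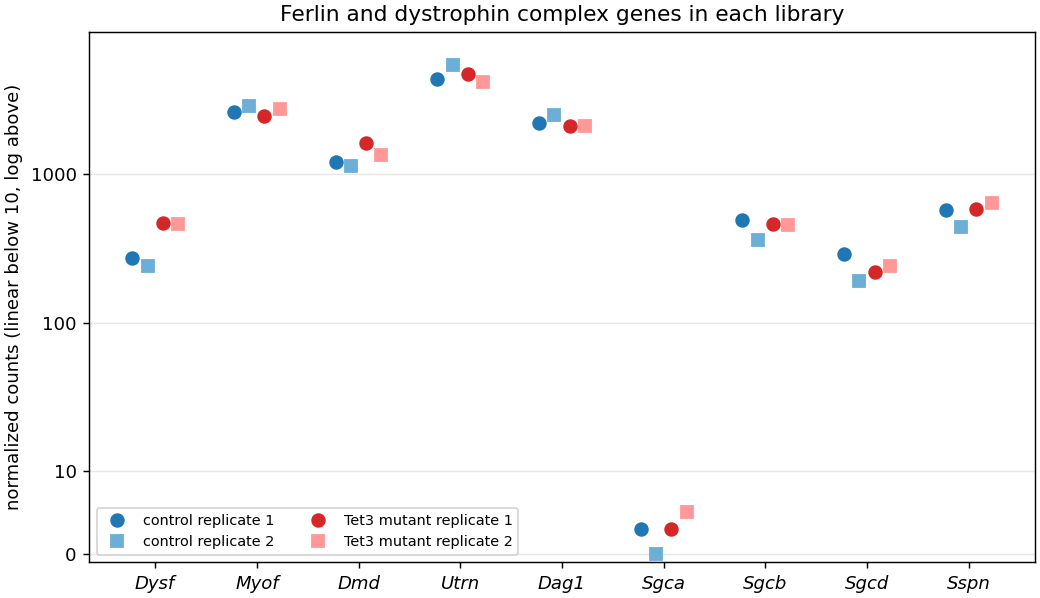
Normalized counts of each gene (vertical axis, linear below 10 and logarithmic above) in the 4 libraries, with controls in blue and Tet3 mutants in red. *Dysf* lies at 241 and 270 in controls and at 464 and 467 in mutants, and *Sgca* lies between 0 and 5 in all libraries.

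*Dysf* (ENSMUSG00000033788, chromosome 6, 84008590 to 84211060 on GRCm38, plus strand) stood at 270 (replicate 1) and 241 (replicate 2) normalized counts in WT and at 467 (replicate 1) and 464 (replicate 2) in Mut. Replicates of other genes are given in this order too. Both mutants lay far above both controls, and replicates lay close together. Means were 255.5 ± 20.5 for WT and 465.5 ± 2.12 for Mut (± SD, n = 2 each), and the log2 fold change was 0.87 (SE 0.13). It was the only tested member past a 1.5-fold difference, which 16.9% of all tested genes passed in either direction and 8.22% as higher in Mut, 6.22% without overlap. The control replicates differed by 1.28 times the standard deviation expected from counting reads, and the mutant replicates by 0.0985 times. Over all tested genes, this measure exceeded 2 for 46.1% of control pairs and 29.8% of mutant pairs. With 1 library left out in turn, the log2 fold change lay between 0.78 and 0.95.

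RefSeq lists 2 starts for *Dysf*, 10.8 kb apart, and the gene's value sums reads from both. They are shown because *Dysf* had the largest difference of the group, and each sequence covers 250 bases before to 50 bases after the start on GRCm38.p6, with GC boxes (GGGCGG on either strand) in capitals. The first lies at chr6:84008348-84008647 and the second at chr6:84019136-84019435, both on the plus strand.
Dysf start 1: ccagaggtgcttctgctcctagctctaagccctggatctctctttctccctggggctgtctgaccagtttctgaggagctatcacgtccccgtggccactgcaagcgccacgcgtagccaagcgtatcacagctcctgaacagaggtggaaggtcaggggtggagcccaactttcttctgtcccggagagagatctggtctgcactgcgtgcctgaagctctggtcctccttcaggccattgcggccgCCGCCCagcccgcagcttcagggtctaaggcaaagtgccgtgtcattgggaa
Dysf start 2: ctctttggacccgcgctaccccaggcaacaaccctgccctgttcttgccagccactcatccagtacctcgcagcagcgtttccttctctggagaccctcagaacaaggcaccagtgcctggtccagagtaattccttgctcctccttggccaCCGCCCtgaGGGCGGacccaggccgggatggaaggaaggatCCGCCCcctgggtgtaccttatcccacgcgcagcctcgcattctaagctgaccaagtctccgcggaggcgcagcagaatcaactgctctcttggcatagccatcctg
The first held 1 GC box and the second 3, and 35.7% of all 32851 mouse promoter sequences of this length held at least 1. Neither held a CArG box, the binding motif of serum response factor, which 1.63% of all promoters held on either strand. They contained 13 and 14 CpG dinucleotides, against a median of 7 over all promoters, and 62.1% and 63.7% of all promoters held fewer.

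*Dysf* starts 549.5 kb beyond the end of *Tet3* on the same chromosome, on the opposite strand. Within 1 Mb of *Dysf*, 36 other genes were tested, *Tet3* among them. Of these, 8 were higher in each mutant than in either control, where 19.6% of all tested genes were, and 6 were lower, where 19.5% were. Their median log2 fold change was -0.03. The 10 tested genes between *Tet3* and *Dysf* had a median of -0.02, with 3 higher and 2 lower in both mutants. The 5 neighbours that were higher without overlap and by more than 1.5-fold, named after their values were seen, were *Mthfd2*, *Actg2*, *Cd207*, *Clec4f* and *1700003E16Rik*. Of all tested genes, 6.22% met both conditions. The smooth muscle actin gene *Actg2* had 101 and 158 normalized counts in WT against 237 and 311 in Mut. *Cd207*, the Langerhans cell lectin langerin, had 29 and 73 in WT against 140 and 204 in Mut. Exons of *Dysf* share 5.49% of their bases with the opposite-strand genes *Gm15475* and *Gm33024*, and *Gm15475* had 7 and 14 in WT against 24 and 9 in Mut, far below *Dysf*.

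**Figure D2:**
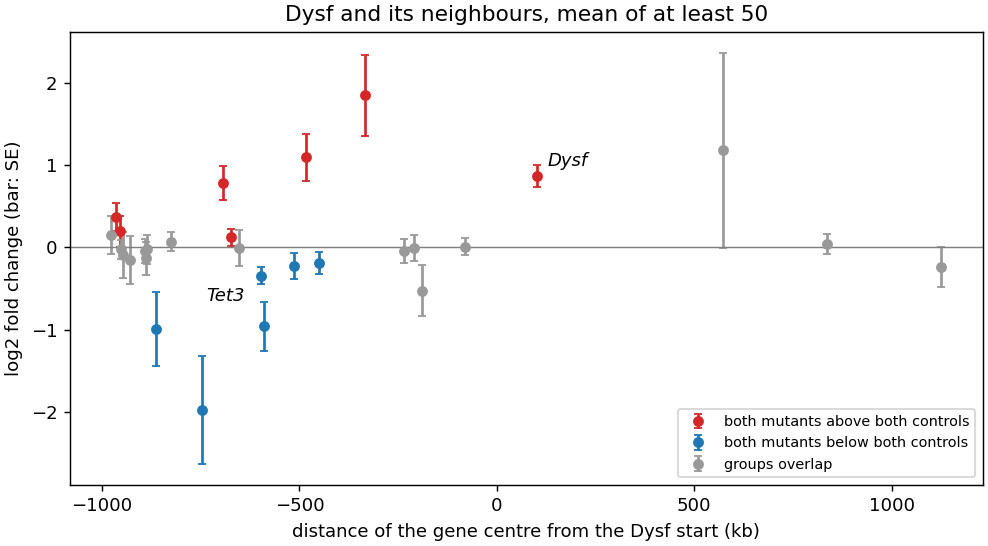
Log2 fold change with its standard error for *Dysf*, *Tet3* and neighbouring genes with a mean of at least 50, against the distance of the gene's centre from the *Dysf* start in kb. Higher, lower and overlapping genes stand side by side along the interval, and *Dysf* is at 0.87.

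The protein-coding genes whose pattern over the 4 libraries was nearest to that of *Dysf*, by Euclidean distance between log2 values centred on each gene's mean, were *Timd4*, *Shc2*, *Spag16*, *Hsph1* and *Tnfsf8*, at distances of 0.0747 to 0.113 among 12158 genes with a mean of at least 50. *Timd4*, a phosphatidylserine receptor of resident macrophages, had 121 and 107 normalized counts in WT against 196 and 204 in Mut. *Hsph1*, a heat shock chaperone, had 581 and 474 in WT against 932 and 915 in Mut. The nearest members were *Dmd* at 0.561 and *Sspn* at 0.624, and the farthest was *Utrn* at 1.07. With 4 libraries these distances are a description only.

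*Myof* (chromosome 19, 37899036 to 38043577), the ferlin closest to dysferlin and known from myoblast fusion and endothelial membranes, had 2626 and 2848 normalized counts in WT against 2454 and 2722 in Mut. The groups overlapped, and the log2 fold change was -0.08 (SE 0.11), or -0.16 to -0.0067 with single libraries left out. Within each library, the level of *Myof* per kb of exon was 6.43 and 7.81 times that of *Dysf* in WT against 3.47 and 3.88 times in Mut. This ratio does not depend on the scaling between libraries, and the 2 groups did not overlap. Exact permutation of 2 against 2 libraries cannot give a p below 0.333 for such a value, so no test of it is given.

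Other ferlins were scarce. Otoferlin (*Otof*), the ferlin of inner hair cells, had 6 and 15 normalized counts in WT against 14 and 15 in Mut. *Fer1l6* had 25 and 2 in WT against 10 and 16 in Mut, and *Fer1l4* reached at most 6 in any library. These 3 genes are given to complete the family and were named after their values were seen. *Fer1l5* was not analysed here.

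Of 28 genes for other ferlins and proteins of membrane repair, 24 were tested and 0 were called by limma in either direction, with 0 at an unadjusted p under 0.05. Their median log2 fold change was 0.08. In both mutants 8 were higher and 1 was lower, where 19.6% and 19.5% of all tested genes were. *Bin1*, which bends membranes into tubules, had 386 and 400 normalized counts in WT against 460 and 490 in Mut (log2 fold change 0.27, limma adjusted p 0.681). *Parvb*, encoding the dysferlin-binding adaptor β-parvin, had 420 and 362 in WT against 438 and 504 in Mut (log2 fold change 0.27, limma adjusted p 0.689), and its log2 fold change was 0.16 without control replicate 2 and 0.17 without Mut replicate 2. *Cavin1*, encoding the coat protein of caveolae, had 548 normalized counts per kb in the control mean, level with *Anxa5* and *Ahnak* at 548 each, and their order changed between the controls. *Cavin1* had 1911 and 2021 normalized counts in WT against 2147 and 2033 in Mut. *Pdcd6ip* (ALIX), which recruits ESCRT proteins to wounds, was the gene counted as lower, at 1573 and 1585 in WT against 1561 and 1555 in Mut, a log2 fold change of -0.019. *Trim72* (MG53), the muscle repair protein, had between 3 and 7 normalized counts in the libraries and was not tested.

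*Dmd* (chromosome X, 82948870 to 85206141), encoding dystrophin and its short isoforms, had 1208 and 1130 normalized counts in WT against 1617 and 1346 in Mut. Both mutants lay above both controls, but the mutants differed from each other by 4.97 times the standard deviation of counting. Means were 1169 ± 55.2 for WT and 1481.5 ± 192 for Mut (± SD, n = 2 each), which gave 0.34 (SE 0.13) as log2 fold change. Leaving out Mut replicate 1 gave 0.20, and leaving out Mut replicate 2 gave 0.47. The lowest *Dmd* value was that of control replicate 2, where *Xist* was nearly absent, and without it the log2 fold change was 0.29.

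The deposited value of *Dmd* sums all isoforms. RefSeq starts on GRCm38.p6 lie 2099.4 kb apart, one upstream of full-length muscle dystrophin and one near the 3′ end, where a short isoform starts. Both are printed since either could supply reads, with a CArG box in capitals in the first and GC boxes in capitals in the second. Whether other starts among the 14 annotated *Dmd* transcripts supplied reads was not tested. The first lies at chrX:82948620-82948919 and the second at chrX:85048045-85048344, on the plus strand.
Dmd start 1: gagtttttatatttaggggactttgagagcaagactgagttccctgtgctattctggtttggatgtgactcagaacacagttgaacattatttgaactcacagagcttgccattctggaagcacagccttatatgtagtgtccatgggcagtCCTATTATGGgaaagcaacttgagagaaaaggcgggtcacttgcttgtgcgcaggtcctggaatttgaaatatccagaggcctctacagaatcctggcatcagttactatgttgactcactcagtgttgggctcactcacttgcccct
Dmd start 2: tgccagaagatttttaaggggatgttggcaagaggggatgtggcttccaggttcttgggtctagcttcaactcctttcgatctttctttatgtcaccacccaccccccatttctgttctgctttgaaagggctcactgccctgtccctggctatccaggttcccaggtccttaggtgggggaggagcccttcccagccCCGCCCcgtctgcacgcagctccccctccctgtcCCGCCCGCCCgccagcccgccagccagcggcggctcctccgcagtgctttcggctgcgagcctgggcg
The CArG box of the first began at position -98 relative to the start and was the only one among 13 promoter sequences of the 9 genes. The first had 2 CpG dinucleotides and the second 14. The 2 *Dysf* starts and the second *Dmd* start thus all held GC boxes. Of the 13 sequences 7 did, including both *Dag1* sequences, which overlap and share GC boxes, and 35.7% of all promoters did.

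*Utrn* (chromosome 10, 12382188 to 12869365), the ubiquitous homologue of dystrophin, had 4351 and 5439 normalized counts in WT against 4691 and 4136 in Mut. The groups overlapped, with a log2 fold change of -0.14 and a standard error of 0.15, and the controls differed by 10.9 times the standard deviation of counting. Without control replicate 2 the value was 0.018, and without control replicate 1 it was -0.30. Per kb of exon, *Utrn* exceeded *Dmd* in every library, by 5.01 and 6.70 times in WT against 4.04 and 4.27 times in Mut. The ratio was lower in both mutants than in both controls.

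**Figure D3:**
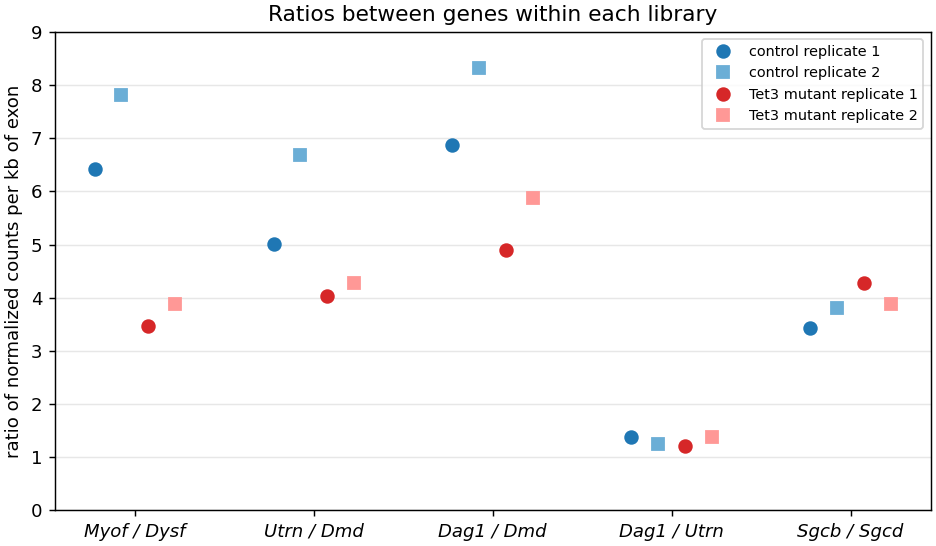
Ratios of normalized counts per kb of exon between pairs of genes, computed within each library, with controls in blue and Tet3 mutants in red. *Myof*/*Dysf*, *Utrn*/*Dmd* and *Dag1*/*Dmd* are lower in both mutants, while *Dag1*/*Utrn* stays between 1.21 and 1.38.

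*Dag1* (chromosome 9, 108204634 to 108263958), encoding both dystroglycan subunits, had 2218 and 2514 normalized counts in WT against 2115 and 2116 in Mut. Both mutants lay below both controls, by a log2 fold change of -0.16 (SE 0.11), and the value was -0.25 without control replicate 1 and -0.07 without control replicate 2. Per kb, *Dag1* was the most abundant member, at 349 and 395 normalized counts per kb in controls and 333 in each mutant, above 97.8% of tested protein-coding genes in the control mean.

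*Sgca* (chromosome 11, 94962791 to 94976327), the α-sarcoglycan of striated muscle, had 3 and 0 normalized counts in WT against 3 and 5 in Mut. These lie at or near a floor of 3 counts, so no fold change is given. Of the skeletal muscle markers, *Myh4*, *Pvalb*, *Myod1* and *Myog* were not analysed here, and the other 7 summed to 97 and 218 normalized counts in WT against 104 and 116 in Mut.

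*Sgcb* (chromosome 5, 73632749 to 73647790) had 488 and 357 normalized counts in WT against 460 and 456 in Mut. *Sgcd* (chromosome 11, 46896253 to 47988969), β-sarcoglycan's partner in the core of the sarcoglycan complex, had 290 and 191 in WT against 219 and 240 in Mut. For both genes the mutants lay between the controls, with control replicate 1 highest and control replicate 2 lowest. The log2 fold change was 0.13 (SE 0.18) for *Sgcb* and -0.04 (SE 0.24) for *Sgcd*. Both signs depended on single controls: *Sgcb* was -0.09 without control replicate 2, and *Sgcd* was 0.26 without control replicate 1 and -0.34 without control replicate 2.

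*Sspn* (chromosome 6, 145931641 to 145965223), the tetraspanin-like protein of the complex, had 577 and 441 normalized counts in WT against 580 and 639 in Mut. The mutants lay above the controls, but Tet3 mutant replicate 1 exceeded control replicate 1 by only 3 normalized counts. The log2 fold change was 0.27 (SE 0.17), and it was 0.46 without control replicate 1 and 0.08 without control replicate 2. Within each library, *Sspn* per kb was 3.29 and 3.82 times *Sgcd* in WT against 4.38 and 4.40 times in Mut, without overlap. The control values of *Sgcb*, *Sgcd* and *Sspn*, all lower in control replicate 2, differed by 4.26 to 4.52 times the standard deviation of counting.

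**Figure D4:**
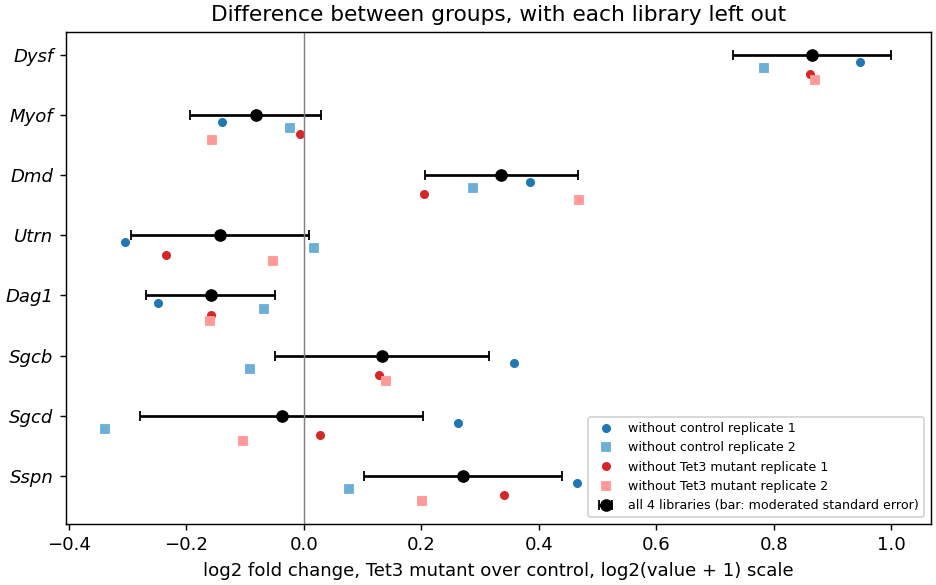
Log2 fold change, Tet3 mutant over control, of the 8 tested members (black, bar: moderated standard error) and the same value with each library left out (coloured). *Dysf* stays between 0.78 and 0.95, while *Utrn*, *Sgcb* and *Sgcd* cross 0 when single libraries are removed.

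*Sgce*, named after its values were seen, completes the sarcoglycans described here. This broadly expressed ε-sarcoglycan takes the place of the α subunit in smooth muscle, and it had 693 and 575 normalized counts in WT against 738 and 670 in Mut. Per kb of exon, control means were 104 for *Sgcb*, 59.7 for *Sgce*, 29.1 for *Sgcd* and 0.865 for *Sgca*. *Sgcb* exceeded *Sgcd* per kb in each library, by 3.43 and 3.81 times in WT against 4.28 and 3.87 times in Mut. *Sgcz* was not analysed here.

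Levels per kb of annotated exon ordered the 9 genes the same way in the control mean and mutant mean, apart from the exchange of *Sgcb* and *Sspn*. Control means were 372 normalized counts per kb for *Dag1*, 286 for *Utrn*, 217 for *Myof*, 104 for *Sgcb*, 102 for *Sspn*, 49.1 for *Dmd*, 30.7 for *Dysf*, 29.1 for *Sgcd* and 0.865 for *Sgca*. *Sgcb* did not differ from *Sspn*, nor *Dysf* from *Sgcd*, beyond the spread of the controls. In the mutants *Dysf* reached 55.9 normalized counts per kb, clear of *Sgcd* at 27.8 and just under *Dmd* at 62.2. Exon lengths count every annotated isoform, which lowers the level per kb of genes with many alternative exons such as *Dmd*.

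Beyond the 9 genes, 17 of 20 other genes for proteins that bind dystrophin or its complex were tested. Limma called 0 of them in either direction, with 1 higher and 1 lower at an unadjusted p under 0.05. In both mutants 7 lay higher and 3 lower, where 19.6% and 19.5% of all tested genes did. The median log2 fold change was 0.16, beside -0.01 for all genes, and it was 0.05 without control replicate 2. *Ank2*, an ankyrin that brings dystrophin to the membrane of muscle, had 410 and 347 normalized counts in WT against 544 and 467 in Mut (log2 fold change 0.42, limma adjusted p 0.681). *Ank3*, the ankyrin of epithelia and axons, had 1822 and 5935 in WT against 1013 and 1354 in Mut (log2 fold change -1.49, limma adjusted p 0.681). *Dtnb*, encoding β-dystrobrevin, had 233 and 451 in WT against 184 and 206 in Mut (log2 fold change -0.73, limma adjusted p 0.681). Both were highest in control replicate 2, as were the summed alveolar type 2 markers, of which 6 of 7 were lower in both mutants and none was at 0. Without control replicate 2, the log2 fold change was -0.64 for *Ank3* and -0.26 for *Dtnb*, and without control replicate 1 it was -2.34 and -1.21. The part of those cells in the values of *Ank3* and *Dtnb* was not tested. *Cav1*, the caveolin of smooth muscle and endothelium, had the highest level per kb of this list, with 1403 and 1189 in WT against 1429 and 1476 in Mut.

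The laminin-binding sugar of dystroglycan is built by a chain of transferases, and 17 of 18 genes for it were tested. Limma called 0 in either direction, and 1 was lower at an unadjusted p under 0.05. In both mutants 1 lay higher and 4 lower, where 19.6% and 19.5% of all tested genes did. The list's median log2 fold change was -0.01. *Dpm1*, which makes the mannose donor of the first step, had 121 and 116 normalized counts in WT against 74 and 77 in Mut (log2 fold change -0.64, SE 0.21, limma adjusted p 0.681). Replicates of *Dpm1* lay within a few counts of each other, and its groups were well apart.

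All 17 genes for laminin chains and other ligands of dystroglycan were tested. Limma called 0 in either direction, with 1 lower at an unadjusted p under 0.05. In both mutants 1 lay higher and 2 lower, where 19.6% and 19.5% of all tested genes did. The list's median log2 fold change was 0.03. *Lamc3*, a laminin γ chain, had 586 and 520 normalized counts in WT against 688 and 664 in Mut (log2 fold change 0.29, limma adjusted p 0.681). *Lama5*, the laminin α chain of epithelial and vascular basement membranes, had 1769 and 2496 in WT against 1380 and 1266 in Mut (log2 fold change -0.67, limma adjusted p 0.681). *Agrn*, encoding the proteoglycan agrin, had 1436 and 1620 in WT against 1345 and 1254 in Mut (log2 fold change -0.23, limma adjusted p 0.681). The highest level per kb was that of *Lamc1*, the common γ chain, at 4079 and 3525 in WT against 3913 and 3619 in Mut. Without control replicate 2, the log2 fold change was -0.42 for *Lama5* and -0.14 for *Agrn*. *Lama5* and *Agrn* were lower in both mutants, as were the summed alveolar type 2 markers given above, whose part in these values was not tested.

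**Figure D5:**
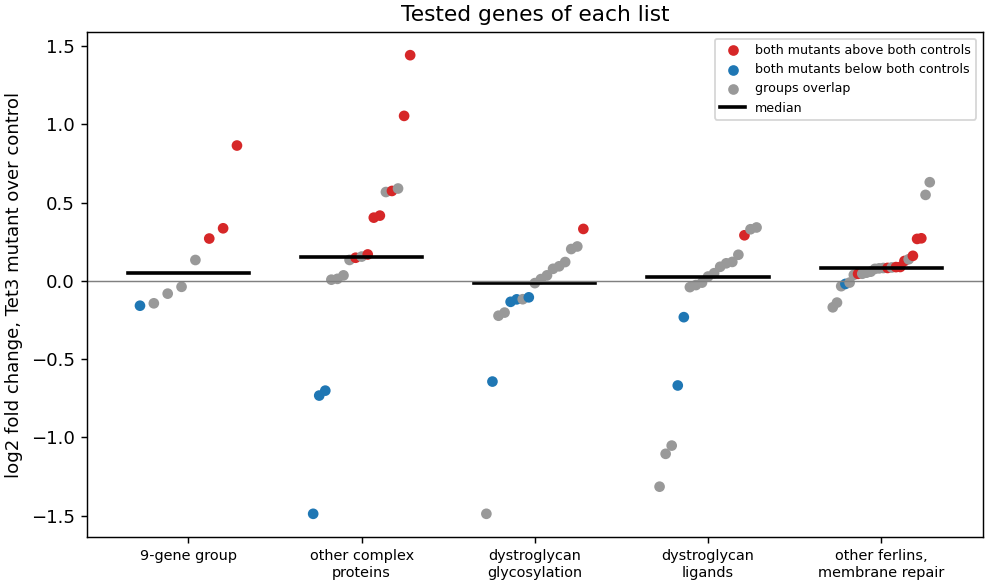
Log2 fold changes of the tested genes in the 9-gene group and in the 4 related lists, ordered within each list, with the median as a black line. Medians lie between -0.01 and 0.16, and red and blue points mark genes whose mutants lie wholly above or below the controls.

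Several marker lists differed between the groups in the direction of *Dysf*. Over all tested genes, 19.6% were higher and 19.5% lower in both mutants. The largest median log2 fold changes were those of T cells at 1.13 and neutrophils at 0.80. Both mutants exceeded both controls in 3 of 9 T cell genes and 5 of 7 tested neutrophil genes. Sums were 1010 and 306 normalized counts in WT against 1072 and 1065 in Mut for T cells. For neutrophils they overlapped, at 1212 and 601 against 1533 and 1104. Of the smooth muscle markers, both mutants exceeded both controls in 7 of 10 genes, with a median log2 fold change of 0.52, and *Acta2*, their defining actin gene, had 686 and 900 normalized counts in WT against 1032 and 929 in Mut. Macrophage markers did so in 7 of 10 genes with a median of 0.42, ciliated cell markers in 7 of 7 tested genes with 0.66, and pericyte markers in 4 of 6 with 0.42. Another pericyte marker, *Rgs5*, was lower in both mutants, at 244 and 342 normalized counts in WT against 192 and 201 in Mut. Cardiomyocyte markers had 3 of 7 tested genes higher and sums of 643 and 693 normalized counts in WT against 1027 and 782 in Mut, with *Nppa* at 0 in both controls. Skeletal muscle markers had 2 of 6 tested genes higher and 2 lower in both mutants. The part of these lists, whatever their cells of origin, in the values of *Dysf*, *Dmd* and *Sspn* was not tested.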

How the data were processed

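The deposited values are a score: counts per gene that the authors normalized between samples and rounded to whole numbers. By the authors' methods, rRNA-depleted stranded single-end libraries were trimmed (Trimmomatic 0.36), aligned to GRCm38 with STAR 2.6.0c (versions per the submitters' processing notes) and counted over exons with featureCounts (Subread 1.6.0), leaving out reads of several genes or places. Whether counting used strand is not given in the sources used here. Scaling factors of 0.961, 1.05, 1.09 and 0.901 (controls, then mutants) were estimated from the spacing of low values. Deposited totals of 6805272 to 7164573 divided by them gave the reads. Raw counts were not recovered, so no count test was run in place of the authors' DESeq2. Counting error covers reads only, as no molecular identifiers were used.

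Values were compared as log2(value + 1), which understates changes of low genes, with limma 3.58.1 in R 4.3.3 (eBayes with a trend, two-sided, Benjamini-Hochberg adjustment across the 16659 genes whose mean reached 10). The procedure was also run on simulated data in which no library stood apart, so that run does not give its power or error here. Levels per kb used the union of GENCODE M21 exons. Promoters were matched by symbol for 9 of 9 genes.

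Members and lists (4 related, 17 of cell type markers) were chosen with earlier results of these data known. Named genes were the members, *Tet3*, up to 2 per list and direction with the largest non-overlapping fold change at a mean of at least 50, the highest per kb, and the 5 nearest to *Dysf*. Marker lists given only by their sums were those of fibroblasts (median log2 fold change 0.16) and Schwann cells (0.14). Not described were those of B cells (0.67), mesothelium (-0.64), club cells (0.39), alveolar type 1 cells (-0.18) and erythroid cells (-1.01). Alternatives were other pseudocounts, minimums and scalings, no trend, a replicate block, and each library left out. Single values of a few genes of the lists are not reported here.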

Additional observations from a re-analysis of the deposited data

How the results depend on the processing

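With 2 libraries per group, a fit without 1 library assumes that the lone library varies like the others. No gene was called under the alternatives run except without the trend, where 1 was (limma adjusted p 0.0307), none of the 27 named genes followed. Of these, 21 kept their direction throughout, *Dysf*, *Dmd*, *Dag1* and *Sspn* among them. Where groups do not overlap, as for these genes, leaving out a library cannot reverse the direction. Many named genes were picked for groups that do not overlap, so this count is no measure of robustness.

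Scaling to equal totals moved the median of all genes to 0.04 and turned *Sgcd* to 0.011, *Lamc1* to 0.038 and *Pdcd6ip* to 0.029. Quantile normalization turned *Myof* to 0.027, *Lamc1* to 0.069 and *Pdcd6ip* to 0.046. Without 1 library, log2 fold changes ranged from -0.30 to 0.018 for *Utrn*, -0.091 to 0.36 for *Sgcb*, -0.34 to 0.26 for *Sgcd* and -0.12 to 0.094 for *Lamc1*. Median log2 fold changes then ranged from -0.0026 to 0.31 for the members, 0.050 to 0.26 for genes of other complex proteins, -0.084 to 0.035 for glycosylation, -0.081 to 0.12 for ligands and 0.047 to 0.081 for membrane repair. The complex median was 0.20 with equal totals and 0.20 with quantile normalization, and the repair median 0.13 with each. Equal totals multiply all values of a library by the same factor, so they shifted all genes nearly alike (median of all, -0.0069 to 0.0414). What lay behind the other shifts was not tested.

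Replicate numbers were not shown to pair the libraries: deviations of same-numbered libraries correlated at 0.13 (Pearson) and 0.12 (Spearman) across 16659 genes, which are not independent, and only 2 pairs exist. A fit with a replicate block called 0 genes, like the fit without one, and 1637 against 1112 had an unadjusted p under 0.05.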
